A study of Homo sapiens with 9 samples.

Results

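The genes described here encode the subunits and assembly factors of the proteasome, the protease that degrades ubiquitin-tagged proteins. They were chosen by symbol, as every protein-coding gene whose name starts with PSM followed by a letter from A to G and a number, without PSMB8 and PSMB9, and the rule itself uses no measured value. The rule found 48 of the 58381 genes counted. Of these, 46 are subunits or assembly factors, and the other two, PSMC3IP, a factor of meiotic recombination, and PSME3IP1, a protein that binds PSME3, are no proteasome subunits and were caught by the symbol pattern. A default filter on low counts left 46 of the 48 for testing, 44 of them subunits or assembly factors. PSMA8 and PSMB11, which are specific to the testis and the thymus, had 0 counts in all 9 libraries, which allows up to 0.283 to 0.435 CPM at these depths, CPM being a library's count put on the same total for every library.

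RNA was measured in EGI-1 cells, an established human line from cholangiocarcinoma, a cancer of the bile duct. The titles carry the tag TET and a hairpin name, and the 3 groups were cells with the FOSL1 hairpin FOSL1sh3, with the FOSL1 hairpin FOSL1sh10, or with the control hairpin GFPsh, 3 libraries each. FOSL1 encodes FRA-1, a subunit of the AP-1 transcription factor. Cells of all 3 groups, controls included, had received doxycycline at 2 ug per ml for 4 days and had then been seeded for 24 hours before harvest. The following points are not given in the sources used here: whether each line was a clone or a pool, and whether replicates were separate cultures. The p-values therefore measure the spread between these libraries, which may be technical. The comparisons ask what each FOSL1 hairpin changed relative to the control hairpin and where the hairpins differed from each other.

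As background, the proteasome consists of a barrel-shaped core particle, in which rings of beta subunits (PSMB) lie between rings of alpha subunits (PSMA), and of a regulatory particle that caps it. The regulatory particle has a base, whose ATPases (PSMC) unfold substrates, and a lid, which removes the ubiquitin chain. Dedicated chaperones (PSMG and some PSMD genes) assemble the rings and the base and leave the finished particle, and alternative caps (PSME) can replace the regulatory particle. Subunit genes are known to be transcribed together under the factor NFE2L1 when proteolysis is inhibited.

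Library totals ranged from 6893026 to 10604251 counts. FOSL1 had 72.3, 70.3 and 44.9 CPM in FOSL1sh3 libraries and 70.9, 57.1 and 65.8 CPM in FOSL1sh10 libraries, against 303, 257 and 182 CPM in GFPsh libraries. It was thus below every control in all 6 hairpin libraries, with log2 fold changes of -1.98 (adjusted p = 1.2e-05) for FOSL1sh3 and -1.94 (adjusted p = 1.03e-05) for FOSL1sh10. The 8 markers of biliary epithelium were all expressed, with sums of 12200 to 13600 CPM in FOSL1sh3, 11000 to 13000 in FOSL1sh10 and 10900 to 11800 in GFPsh. Of 4 leukocyte markers 3 were at 0 throughout, with a summed level of at most 0.289 CPM. The 3 hepatocyte markers summed to at most 0.339 CPM, and the 5 markers of fibroblasts and endothelium to 3.9 to 7.64 CPM in FOSL1sh3, 6.9 to 8.46 in FOSL1sh10 and 2.93 to 4.74 in GFPsh. The TMM scaling factors differed by group, at 0.921 to 0.962 in FOSL1sh3, 1.02 to 1.10 in FOSL1sh10 and 0.987 to 1.001 in GFPsh. Ribosomal protein genes took 24.7% to 25% of counts in FOSL1sh3, 18.6% to 21.9% in FOSL1sh10 and 22.3% to 23.6% in GFPsh, and the part of this difference in the results below was not tested.

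Proteasome genes as a whole stood at close summed levels in the 3 groups. The 46 subunits and assembly factors summed to 11120 ± 588 CPM in FOSL1sh3, 11220 ± 209 CPM in FOSL1sh10 and 11140 ± 307 CPM in GFPsh (TMM-scaled CPM, SD, n = 3 each). The differences between these means were smaller than the SD within any of the groups. Scaled by library totals alone, the means were 10500 CPM in FOSL1sh3, 11920 CPM in FOSL1sh10 and 11020 CPM in GFPsh. The order of the group means was the same with both scalings, and their distance from the controls depends on the scaling. The median log2 fold change of the 46 members tested was -0.0037 for FOSL1sh3 and -0.028 for FOSL1sh10, both against GFPsh, beside 0.0069 and 0.0016 over all 12814 genes tested. FOSL1sh3 set against FOSL1sh10 gave a median of -0.017 over the members and 0.00044 over all genes.

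A few single genes departed from this level. Against GFPsh, edgeR's quasi-likelihood test called 3 of 46 members lower with FOSL1sh3 and none higher. Its background share of genes called was 10.9% of all genes tested, 5.65% lower and 5.21% higher. An unadjusted p under 0.05 was found by this test for 8 members, beside 26.9% of all genes. DESeq2 called the same 3 lower and PSMG4 higher, beside 808 genes lower and 746 higher in all. With FOSL1sh10 no member was called by edgeR's quasi-likelihood test, against a background of 5.28%, 3.13% higher and 2.15% lower. Here 5 members had an unadjusted p under 0.05 by edgeR, beside 19.4% of all genes. DESeq2 called 2, beside 458 genes higher and 363 lower in all. FOSL1sh3 set against FOSL1sh10 gave 3 lower members and no higher one with edgeR, against a background of 12.7%, 7.00% lower and 5.74% higher. With 3 of 46 or fewer in each edgeR comparison, the members were called no more often than genes at large. Scaling by library totals moved the share of higher genes among all calls to 34.0%, against 48.0% with TMM, for FOSL1sh3, and to 77.5%, against 59.3%, for FOSL1sh10. For FOSL1sh3 against FOSL1sh10 it moved that share to 17.6%, against 45.1%.

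The intervals show how large a change could have been missed. For FOSL1sh3 against GFPsh, the 95% interval of the log2 fold change lay within ±0.5 for 23 of the 46 members tested and within ±1 for 40. For FOSL1sh10 against GFPsh it lay within ±0.5 for 29 members and within ±1 for 39. The median standard error (SE) over members was 0.148 on the log2 scale in both comparisons, below the 0.214 over all genes.

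**Figure D1:**
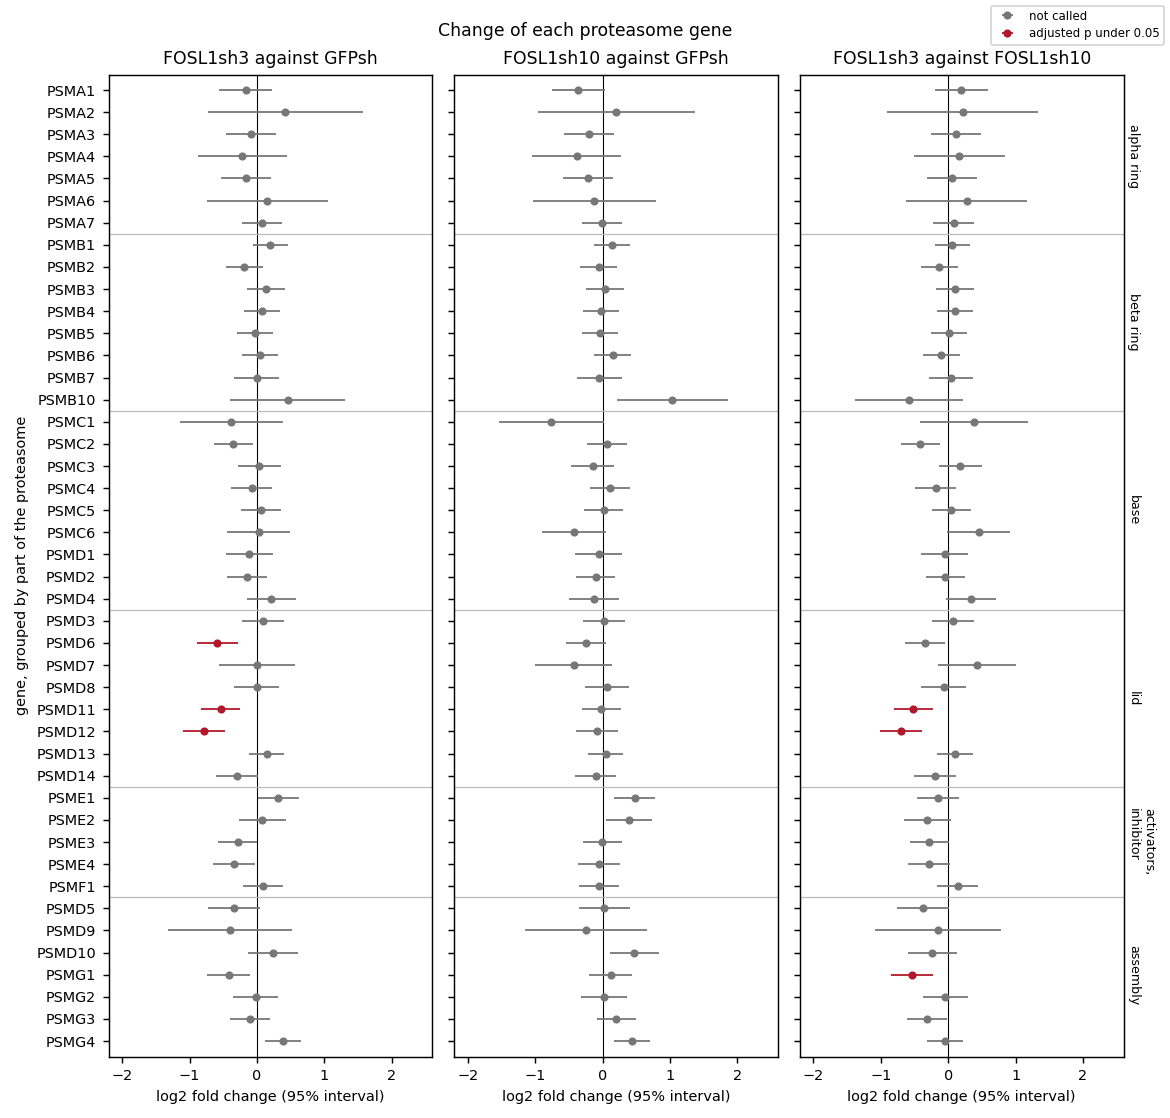
Log2 fold change of each of the 44 tested subunits and assembly factors with its 95% interval (horizontal axis), grouped by part of the proteasome (vertical axis), in 3 comparisons. Red points were called at an adjusted p under 0.05, namely PSMD6, PSMD11 and PSMD12 for FOSL1sh3 against GFPsh, and PSMD11, PSMD12 and PSMG1 for FOSL1sh3 against FOSL1sh10.

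The 3 genes that fell with FOSL1sh3 are 3 of the 8 lid genes. The lid is the subcomplex around the deubiquitinase PSMD14. The promoter windows of PSMD6, PSMD11 and PSMD12 are shown because these genes were lower together in the same libraries. Each window is the RefSeq sequence from 250 bases before to 50 bases after the gene's start (GRCh38.p14), written from 5′ to 3′ on the gene's strand. Capitals mark a match, on either strand, to one of 3 motifs: TGANTCA, the AP-1 site, TGACNNNGC, the antioxidant response element bound by NFE2L1 and NFE2L2, and CCAAT. The windows lie at chr17:67366528-67366827 on the minus strand for PSMD12, chr17:32444260-32444559 on the plus strand for PSMD11 and chr3:64023445-64023744 on the minus strand for PSMD6.
PSMD12: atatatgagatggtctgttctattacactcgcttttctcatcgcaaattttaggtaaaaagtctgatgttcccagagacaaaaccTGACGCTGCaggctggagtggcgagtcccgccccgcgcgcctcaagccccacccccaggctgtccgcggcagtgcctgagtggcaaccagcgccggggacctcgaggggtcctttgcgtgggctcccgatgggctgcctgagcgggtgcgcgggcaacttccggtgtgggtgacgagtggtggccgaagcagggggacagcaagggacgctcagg
PSMD11: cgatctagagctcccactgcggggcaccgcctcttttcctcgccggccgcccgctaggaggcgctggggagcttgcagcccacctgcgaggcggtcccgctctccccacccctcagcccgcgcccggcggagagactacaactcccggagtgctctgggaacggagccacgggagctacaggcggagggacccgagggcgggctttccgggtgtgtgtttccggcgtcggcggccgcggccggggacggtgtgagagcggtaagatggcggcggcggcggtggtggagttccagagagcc
PSMD6: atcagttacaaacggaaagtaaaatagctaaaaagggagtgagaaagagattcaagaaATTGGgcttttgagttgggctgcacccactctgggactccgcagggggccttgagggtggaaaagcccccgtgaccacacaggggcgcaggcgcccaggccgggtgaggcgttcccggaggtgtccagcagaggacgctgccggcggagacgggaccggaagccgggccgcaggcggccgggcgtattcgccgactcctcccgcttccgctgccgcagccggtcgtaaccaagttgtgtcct
The PSMD12 window holds an antioxidant response element starting at position -165 from the start site, the PSMD6 window holds a CCAAT box, on the other strand, at -192, and the PSMD11 window holds none of the 3 motifs. None of the 3 windows holds the AP-1 motif.

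PSMD12 (chr17:67337916-67366627, minus strand, hg38) had 101, 132 and 107 CPM in FOSL1sh3 libraries and 164, 216 and 173 CPM in FOSL1sh10 libraries, against 205, 184 and 197 CPM in GFPsh libraries. Every FOSL1sh3 library was below every library of the other groups, and FOSL1sh10 and GFPsh overlapped. The log2 fold change for FOSL1sh3 against GFPsh was -0.79 (SE 0.148, 95% interval -1.10 to -0.48, adjusted p = 0.00309), and for FOSL1sh10 against GFPsh it was -0.08 (interval -0.39 to 0.22, adjusted p = 0.817). The direct comparison of FOSL1sh3 with FOSL1sh10 gave -0.70, with SE 0.147 and adjusted p = 0.00467. Both calls held in all 16 alternatives run, with adjusted p from 4.01e-05 to 0.0334 against GFPsh and from 0.000298 to 0.0471 against FOSL1sh10. With a trend on GC content and transcript length removed, the change against GFPsh was -0.47, against -0.79 without it.

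PSMD11 (chr17:32444261-32483318, plus strand), which ties the lid to the core particle, had 154, 164 and 128 CPM in FOSL1sh3 libraries and 192, 218 and 227 CPM in FOSL1sh10 libraries, against 229, 209.5 and 208 CPM in GFPsh libraries. The FOSL1sh3 libraries again lay below all others. The log2 fold change for FOSL1sh3 was -0.54 against GFPsh (SE 0.138, adjusted p = 0.0192) and -0.52 against FOSL1sh10 (SE 0.138, adjusted p = 0.0201). FOSL1sh10 set against GFPsh gave -0.02 (interval -0.31 to 0.27). The call against GFPsh was lost without GFPsh replicate 1 (adjusted p = 0.0958) or FOSL1sh3 replicate 3 (0.0703), and that against FOSL1sh10 without FOSL1sh3 replicate 3 (0.0699), FOSL1sh10 replicate 2 (0.0914) or FOSL1sh10 replicate 3 (0.0923).

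PSMD6 (chr3:64010549-64024010, minus strand) had 101, 96.2 and 89.6 CPM in FOSL1sh3 libraries and 107, 138 and 118 CPM in FOSL1sh10 libraries, against 158, 122 and 150.1 CPM in GFPsh libraries. FOSL1sh3 lay below both other groups, and the FOSL1sh10 libraries reached into the control range. The log2 fold change was -0.59 for FOSL1sh3 (SE 0.144, adjusted p = 0.0154) and -0.24 for FOSL1sh10 (SE 0.143, adjusted p = 0.379), and the direct comparison of the hairpins gave -0.34 (adjusted p = 0.128). The FOSL1sh3 call was lost without GFPsh replicate 1 (adjusted p = 0.0916) or GFPsh replicate 3 (0.0522), and with the GC and length trend removed the change was -0.28 (adjusted p = 0.211).

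The other 5 lid genes were not called by edgeR's quasi-likelihood test in any comparison. PSMD14, the deubiquitinase of the lid, had a log2 fold change of -0.30 for FOSL1sh3 (interval -0.61 to 0.01) and -0.10 for FOSL1sh10. Its partner PSMD7 was at -0.0023 and -0.43, with a wide interval, reaching from -1 to 0.14, for FOSL1sh10, and PSMD3, PSMD8 and PSMD13 were between -0.0014 and 0.15 in both comparisons with GFPsh. Summed over the 8 lid genes, the level was 1350, 1267 and 1319 CPM in FOSL1sh3 libraries and 1385, 1544 and 1526 CPM in FOSL1sh10 libraries, against 1604, 1477 and 1499 CPM in GFPsh libraries. The FOSL1sh3 libraries lay below all 6 others, at a ratio of 0.859 to the control mean, or 0.819 with library totals, and the 3 calls against GFPsh also held with library totals. The sums include the 3 called genes, so they are not a result apart from those calls. Mean CPM in FOSL1sh3 against GFPsh was 113 against 195 for PSMD12, 148.5 against 215 for PSMD11 and 95.5 against 143.5 for PSMD6. In bulk RNA, fewer cells with a transcript and less of it per cell cannot be told apart.

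**Figure D2:**
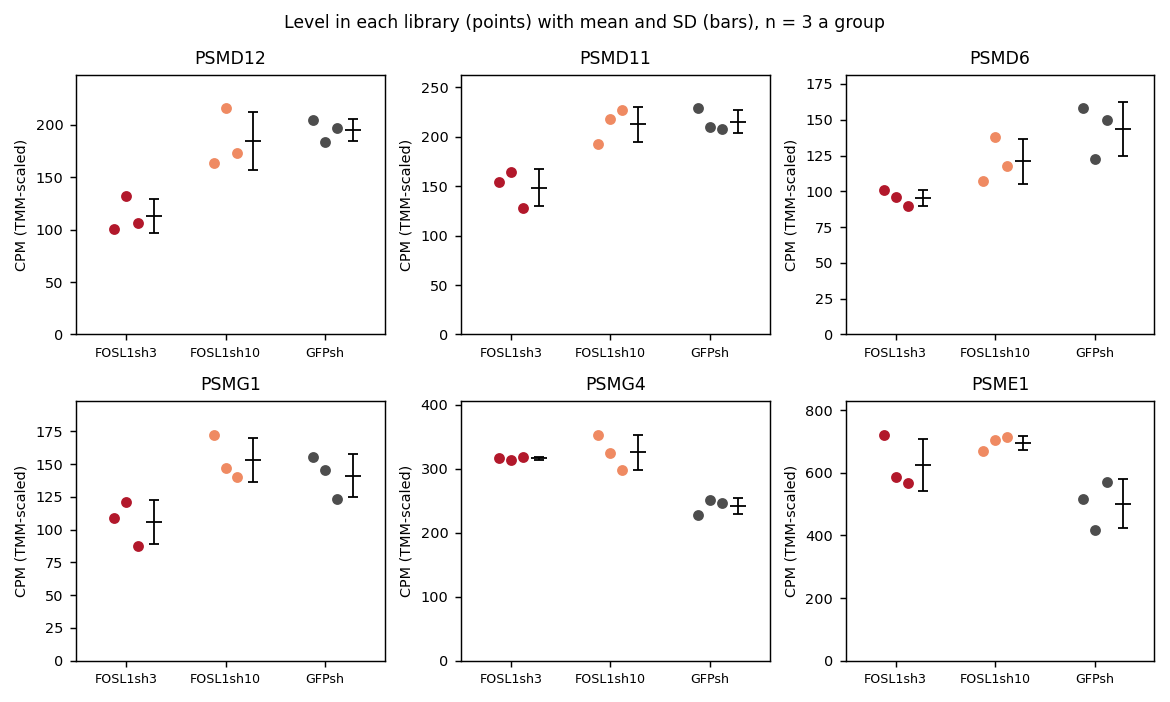
TMM-scaled CPM (vertical axis, from 0) of 6 members in each library, for FOSL1sh3, FOSL1sh10 and GFPsh. Points are libraries and bars are the mean and SD of 3. The FOSL1sh3 libraries lie lowest for PSMD12, PSMD11, PSMD6 and PSMG1, and all hairpin libraries lie above the controls for PSMG4.

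None of the 9 genes of the base was called in any comparison in the main fit of edgeR's quasi-likelihood test. They summed to 1995 ± 255 CPM in FOSL1sh3, 1919 ± 65.5 CPM in FOSL1sh10 and 2007 ± 81.3 CPM in GFPsh. The FOSL1sh10 mean was below the GFPsh mean by more than the SD of either group. Their libraries overlapped, at 1879 to 1995 CPM in FOSL1sh10 and 1946 to 2099 CPM in GFPsh. The ATPase PSMC2 had the smallest p among them, with 119, 123 and 105 CPM in FOSL1sh3 libraries and 137, 162 and 162 CPM in FOSL1sh10 libraries, against 162, 126 and 154 CPM in GFPsh libraries. FOSL1sh3 did not overlap either other group for PSMC2, and the log2 fold change was -0.35 against GFPsh (adjusted p = 0.117) and -0.41 against FOSL1sh10 (adjusted p = 0.0623). DESeq2 (adjusted p = 0.0496) and edgeR with library totals (0.0108) called the difference of PSMC2 between the hairpins. The ATPase PSMC1 was at 3.58 ± 1.56 CPM in FOSL1sh3, 2.77 ± 0.699 CPM in FOSL1sh10 and 4.72 ± 1.80 CPM in GFPsh, too low for a narrow interval. Its log2 fold change for FOSL1sh10 was -0.76 (interval -1.54 to 0.02, adjusted p = 0.274). The scaffold subunits PSMD1 and PSMD2 and the ubiquitin receptor PSMD4 were between -0.15 and 0.21 in both comparisons with GFPsh.

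The alpha ring, which gates the core particle, summed to 2556 ± 126 CPM in FOSL1sh3, 2411 ± 171 CPM in FOSL1sh10 and 2551 ± 140 CPM in GFPsh. No alpha subunit was called. PSMA1 had 111, 107 and 130.3 CPM in FOSL1sh3 libraries and 102, 95.2 and 108 CPM in FOSL1sh10 libraries, against 107, 100.4 and 184 CPM in GFPsh libraries. The groups overlapped, and GFPsh replicate 3 stood above the other 8 libraries. The log2 fold change of PSMA1 was -0.17 (adjusted p = 0.606) for FOSL1sh3 and -0.36 (adjusted p = 0.306) for FOSL1sh10. PSMA5 was at -0.16 and -0.22, with 367 to 627 CPM in FOSL1sh3, 440 to 497 CPM in FOSL1sh10 and 447 to 622 CPM in GFPsh.

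The standard catalytic subunits of the beta ring are PSMB5, PSMB6 and PSMB7, with chymotrypsin-like, caspase-like and trypsin-like activity. PSMB5, the main target of proteasome inhibitors used in myeloma, had 195, 175 and 184 CPM in FOSL1sh3 libraries and 179, 190.3 and 182 CPM in FOSL1sh10 libraries, against 194, 199 and 171 CPM in GFPsh libraries. The 3 groups overlapped. Its log2 fold change was -0.03 for FOSL1sh3 (interval -0.30 to 0.24) and -0.03 for FOSL1sh10 (interval -0.30 to 0.23). PSMB6 was at 0.05 and 0.15, and PSMB7 at -0.0050 and -0.05, all with intervals inside ±0.5. For PSMB6 the FOSL1sh10 libraries, at 337, 337 and 351 CPM, lay above the 301, 313 and 311 CPM in GFPsh libraries. FOSL1sh10 and GFPsh did not overlap for 27.3% of all genes tested. The 3 genes together summed to 1257 ± 185 CPM in FOSL1sh3, 1258 ± 16.1 CPM in FOSL1sh10 and 1253 ± 107 CPM in GFPsh, so the means differed by less than any SD.

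PSMB1, a structural beta subunit, had 342, 359 and 337 CPM in FOSL1sh3 libraries and 351, 329 and 316 CPM in FOSL1sh10 libraries, against 288, 312 and 306 CPM in GFPsh libraries. All 6 hairpin libraries were above all 3 controls, as for 9.66% of all genes tested on either side. In edgeR's main fit the changes were small and not called, at 0.20 (adjusted p = 0.336) for FOSL1sh3 and 0.14 (adjusted p = 0.612) for FOSL1sh10. With the GC and length trend removed, PSMB1 was called for FOSL1sh3 at 0.47 (adjusted p = 0.0276), in 1 of 16 alternatives. The FOSL1sh10 change was then 0.20 (adjusted p = 0.407). PSMB2, PSMB3 and PSMB4 were between -0.19 and 0.13 in both comparisons.

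PSMB10 is the inducible counterpart of PSMB7, made after interferon-gamma and placed in immunoproteasomes beside PSMB8 and PSMB9. It had 15, 25 and 12 counts in FOSL1sh3 libraries and 25, 30 and 28 counts in FOSL1sh10 libraries, against 11, 14 and 15 counts in GFPsh libraries. On the CPM scale the FOSL1sh10 libraries lay above all controls, and FOSL1sh3 replicate 2 stood apart from the other FOSL1sh3 libraries. The log2 fold change for FOSL1sh10 was 1.03 (SE 0.391, interval 0.21 to 1.85), which did not pass after adjustment (adjusted p = 0.141). Of the other inducible subunits, PSMB9 had 116, 104 and 110.3 CPM in FOSL1sh10 libraries, against 48.0, 47.9 and 44.1 CPM in GFPsh libraries, and rose by 1.24 (adjusted p = 1.8e-05), while PSMB8 was at 0.43 (adjusted p = 0.0845). PSMB8 had 406, 402 and 496 CPM in FOSL1sh10 libraries, above the 335.5, 352 and 281 CPM in GFPsh libraries. Among 16 alternatives only edgeR with library totals called it, for FOSL1sh10 against GFPsh (adjusted p = 0.0287) and for FOSL1sh3 against FOSL1sh10 (0.0203). PSMB8, PSMB9 and PSMB10 made up 24.5% ± 3.18 of the summed CPM of the 6 catalytic genes in FOSL1sh3, 30.3% ± 2.03 in FOSL1sh10 and 22.9% ± 3.24 in GFPsh (SD, n = 3 each). The FOSL1sh10 libraries, at 29.1% to 32.7%, lay above all others, and most of this share is PSMB8.

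**Figure D3:**
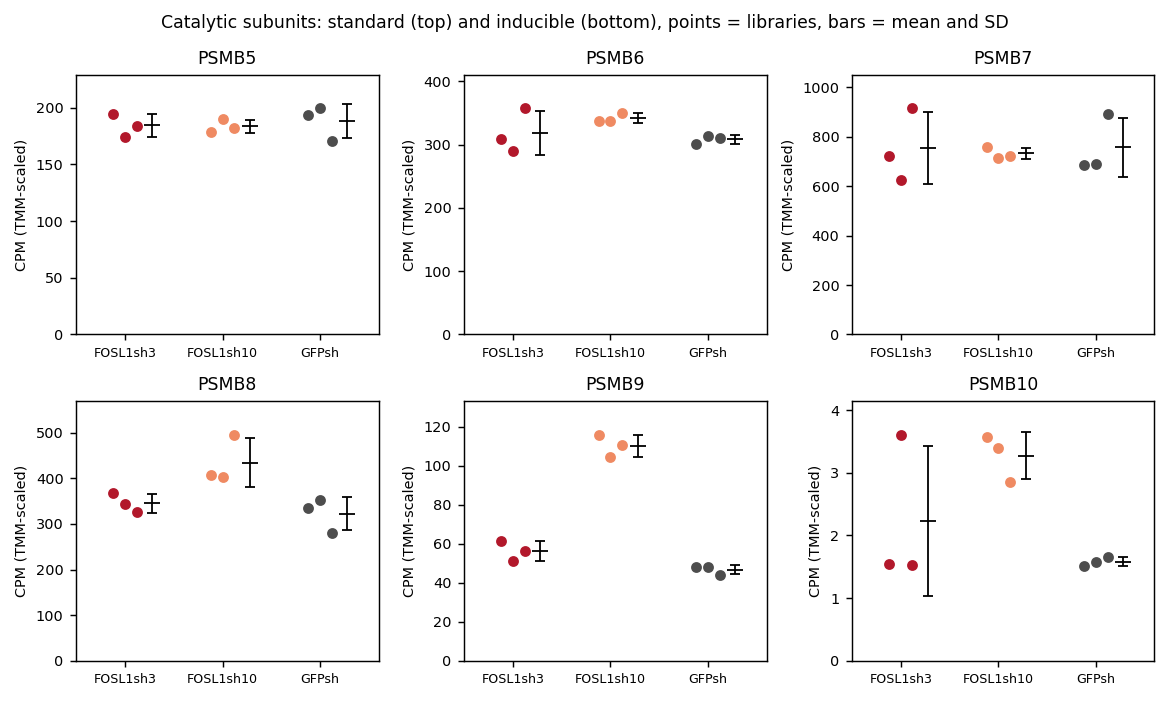
TMM-scaled CPM (vertical axis, from 0) of the standard catalytic subunits PSMB5, PSMB6 and PSMB7 (top) and the inducible PSMB8, PSMB9 and PSMB10 (bottom) in each library of FOSL1sh3, FOSL1sh10 and GFPsh. Points are libraries and bars are the mean and SD of 3. PSMB5 and PSMB7 overlap between groups. PSMB6 in FOSL1sh10, at 337 to 351 CPM, lies above the controls and overlaps FOSL1sh3. PSMB9 in FOSL1sh10, at 104 to 116 CPM, lies above the other groups.

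PSME1 and PSME2 form the interferon-inducible activator that caps the core particle in place of the regulatory particle. PSME1 had 722, 586 and 568 CPM in FOSL1sh3 libraries and 671, 704 and 714 CPM in FOSL1sh10 libraries, against 516, 416 and 572 CPM in GFPsh libraries. FOSL1sh10 lay above all controls, and FOSL1sh3 overlapped them. The log2 fold change of PSME1 was 0.32 (adjusted p = 0.174) for FOSL1sh3 and 0.47 (SE 0.148, adjusted p = 0.0716) for FOSL1sh10. DESeq2 called the FOSL1sh10 change (adjusted p = 0.0376), as did edgeR with library totals (0.0213), with the FOSL1sh10 and GFPsh libraries alone (0.033) or without FOSL1sh3 replicate 3 (0.049). PSME2 had 181, 128 and 129 CPM in FOSL1sh10 libraries, against 97.5, 123 and 113 CPM in GFPsh libraries, a change of 0.39 (adjusted p = 0.189), and in FOSL1sh3 libraries it had 107, 107 and 139 CPM. The nuclear activators PSME3 and PSME4 were at -0.29 (adjusted p = 0.19) and -0.34 (adjusted p = 0.146) for FOSL1sh3 and at -0.0065 and -0.05 for FOSL1sh10. The inhibitor PSMF1 was at 0.08 and -0.05.

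Summed over these 5 genes, the level was 1181, 1015 and 1032 CPM in FOSL1sh3 libraries and 1180, 1201 and 1217 CPM in FOSL1sh10 libraries, against 996, 864 and 1073 CPM in GFPsh libraries. FOSL1sh10 lay above all controls, at a ratio of 1.23 to their mean, and PSME1 was the largest term of each sum. With library totals the ratio for FOSL1sh10 was 1.32.

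Among the assembly factors 1 gene was called between the hairpins and 1 with the mean of both against GFPsh. PSMG1 pairs with PSMG2 as the chaperone that starts the alpha ring, and PSMG3 pairs with PSMG4 in the next step. PSMG1 (chr21:39174769-39183851, minus strand) had 109, 121 and 87.6 CPM in FOSL1sh3 libraries, against 172, 147 and 140.2 CPM in FOSL1sh10 libraries. The groups did not overlap, and the log2 fold change of PSMG1 between them was -0.54 (SE 0.151), called at an adjusted p of 0.0266. In GFPsh libraries it had 155, 145 and 123 CPM, and neither hairpin was called against them, at -0.42 (adjusted p = 0.0832) for FOSL1sh3 and 0.12 (adjusted p = 0.733) for FOSL1sh10. The FOSL1sh3 libraries lay below all controls. PSMG1 was called for FOSL1sh3 against GFPsh in 2 of 16 alternatives, with library totals (adjusted p = 0.0442) and without FOSL1sh3 replicate 2 (0.0412). The call between the hairpins was lost without FOSL1sh3 replicate 3 (adjusted p = 0.095), FOSL1sh10 replicate 1 (0.11) or FOSL1sh10 replicate 2 (0.0771).

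PSMG4 (chr6:3231403-3303373, plus strand) rose when both hairpins were set against GFPsh together. It had 317, 314 and 318 CPM in FOSL1sh3 libraries and 353, 325 and 298 CPM in FOSL1sh10 libraries, against 227, 251 and 246 CPM in GFPsh libraries. All 6 hairpin libraries were above all controls. With edgeR's quasi-likelihood test neither hairpin alone passed the threshold, at 0.39 (adjusted p = 0.0582) for FOSL1sh3 and 0.43 (adjusted p = 0.0576) for FOSL1sh10, and the mean of both hairpins set against GFPsh gave 0.41 (SE 0.113, interval 0.17 to 0.65, adjusted p = 0.037). DESeq2 called PSMG4 for each hairpin alone, with an adjusted p of 0.0216 for FOSL1sh3 and 0.017 for FOSL1sh10. For FOSL1sh10 it was also called with library totals (0.0159), with the compared groups alone (0.0333) and without FOSL1sh3 replicate 3 (0.0386). With both hairpins together 7 members had an unadjusted p under 0.05, beside 21.5% of all genes. Called were 2 members, PSMG4 higher and PSMD12 lower (-0.44, adjusted p = 0.045), against a background of 6.22% of all genes, 3.25% higher and 2.97% lower. Each of these calls held in 6 of 15 alternatives, with adjusted p from 0.00602 to 0.193 for PSMG4 and from 0.0192 to 0.248 for PSMD12, and leaving out any GFPsh or any FOSL1sh10 library ended the call of PSMG4.

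PSMD10, also known as gankyrin and a chaperone of the base, had 26.9, 26.4 and 21.3 CPM in FOSL1sh3 libraries and 31.7, 31.1 and 25.1 CPM in FOSL1sh10 libraries, against 21.8, 17.8 and 23.8 CPM in GFPsh libraries. FOSL1sh10 did not overlap the controls, and the change of 0.47 was not called (adjusted p = 0.132). The base chaperones PSMD5 and PSMD9 and the ring chaperones PSMG2 and PSMG3 were not called in any comparison in the main fit of edgeR's quasi-likelihood test. The 7 assembly factors summed to 822 ± 74.2 CPM in FOSL1sh3, 909 ± 78.2 CPM in FOSL1sh10 and 792 ± 43.4 CPM in GFPsh.

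**Figure D4:**
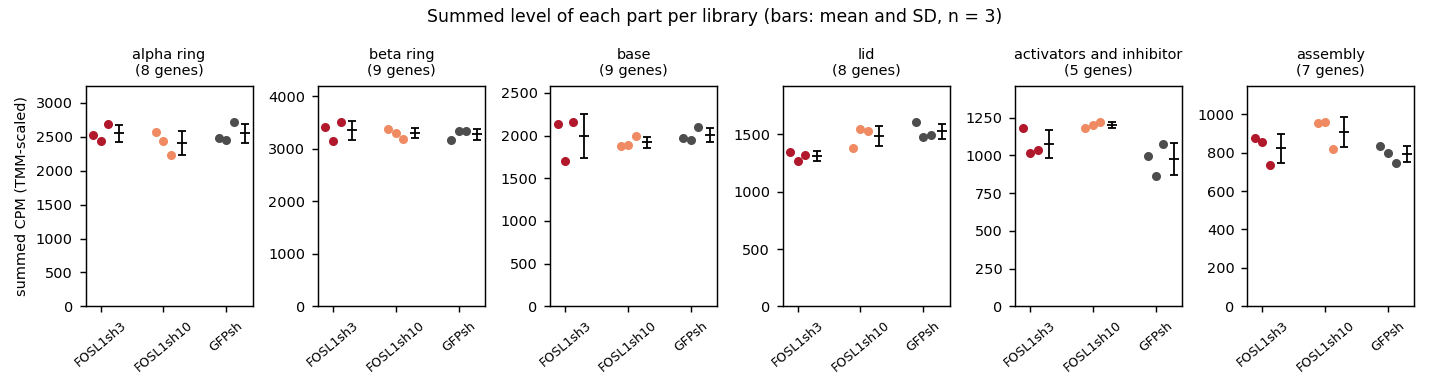
TMM-scaled CPM summed over the genes of each part of the proteasome (vertical axis, from 0) in each library of FOSL1sh3, FOSL1sh10 and GFPsh. Points are libraries and bars are the mean and SD of 3. The lid sums of FOSL1sh3, at 1267 to 1350 CPM, lie below all others, and include the called genes PSMD6, PSMD11 and PSMD12. The activator sums of FOSL1sh10, at 1180 to 1217 CPM, lie above the controls, while the alpha ring, beta ring and base overlap between groups.

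Against GFPsh, 11 of 46 members did not overlap for FOSL1sh3, 3 above and 8 below, beside 29.2% of all genes, and 8 for FOSL1sh10, 7 above and 1 below, beside 27.3%. For FOSL1sh3 against FOSL1sh10 there were 9, with PSME3IP1 above and 8 subunits or assembly factors below, beside 30.7%. PSMC3IP had 1.48 to 2.23 CPM as group means and PSME3IP1 72.2 to 85.1, and neither was called.

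Levels between genes can be compared per length only roughly, since the library protocol tags transcripts near their 3′ ends. In GFPsh the mean level of the 44 tested subunits and assembly factors ran from 0.17 CPM per kb of exon for PSMA2 to 957 CPM per kb for PSMA7, both alpha subunits present in the same number of copies in every core particle. PSMB7, PSMB3 and PSMB4 followed PSMA7 at 424, 389 and 355 CPM per kb, and the median gene stood at 38.0 CPM per kb. Genes of 1 complex were thus counted at very unequal levels. There were 6 genes under 10 CPM in GFPsh, namely PSMA2, PSMA4, PSMA6, PSMB10, PSMC1 and PSMD9.

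Some of the low genes share their 3′ ends with other genes in the annotation, and the counter by default leaves out reads that lie in the exons of more than 1 gene. For PSMC1 the last 500 exon bases were shared to 100% with NRDE2, and PSMB10 (94.6%), PSMD9 (87.2%) and PSMD7 (100%) also shared over 80% of theirs with another gene. These 4 genes stood between 0.27 and 14.6 CPM per kb, against a median of 56.2 for the 35 genes with no shared base there. PSMA2 and PSMA4 were low with no shared base among their last 500. Over all exon bases PSMA2 shared 34.6% with other genes and PSMA4 shared 0%. The part of shared bases in the levels was not tested. Annotated pseudogenes, 44 for 17 members, held 698 counts summed over all libraries, with 130 at copies of PSMA6 beside 220 of the gene, 74 at copies of PSMC1 beside 287, and 365 at copies of PSME2 beside 9380. Values of PSMA6 and PSMC1 are uncertain for that reason too. The 6 low genes also varied more between replicates, with a median coefficient of variation of 36.0%, against 10.7% for the 38 genes at 10 CPM or more.

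**Figure D5:**
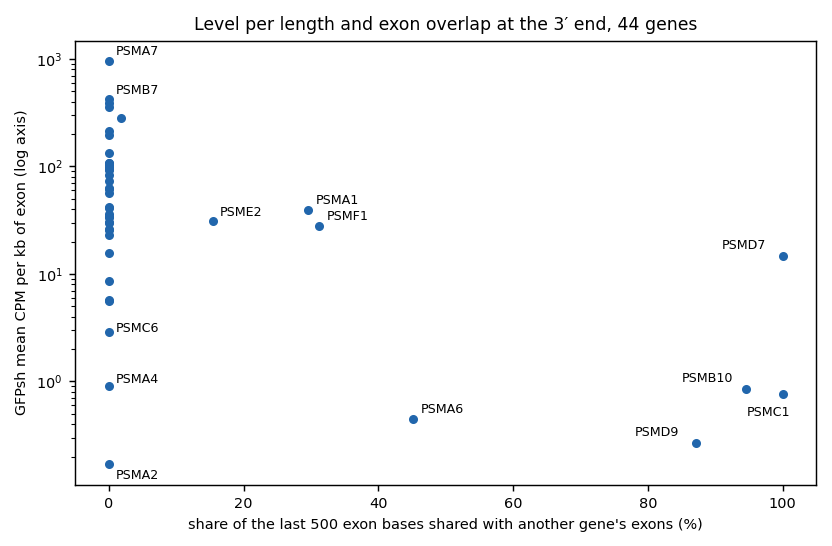
Mean level in GFPsh per kb of exon (vertical log axis) against the share of a gene's last 500 exon bases that also lie in another gene's exons (horizontal axis, in percent) for the 44 tested subunits and assembly factors. Each point is a gene. The 4 genes with over 80% shared stand at 14.6 CPM per kb or lower, and PSMA2 and PSMA4 are low with 0% shared.

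RefSeq promoter windows were found for 40 of the 46 subunits and assembly factors, and none for PSMA7, PSMB1, PSMB6, PSMB7, PSMD4 and PSMG3. The AP-1 motif TGANTCA was in a window of 3 of the 40 genes (7.50%), PSMC5, PSMD2 and PSMD9, against 7.16% of the tested genes with windows and 9.37% of all genes with windows. The antioxidant response element TGACNNNGC was in windows of 14 genes (35.0%), against 19.6% of tested genes and 16.1% of all. CCAAT was in windows of 19 genes (47.5%), against 43.4% and 39.7%. The first 2 motifs can overlap where their letters allow, both strands were searched, and a gene with several start sites counted once if any window held the motif. PSMC5, an ATPase of the base, has 2 windows. The other, at chr17:63827181-63827480, holds a CCAAT box and neither of the other motifs. The window shown was chosen because it holds both the AP-1 motif, at -35, and an antioxidant response element on the other strand, at -57 (chr17:63827471-63827770, plus strand).
PSMC5: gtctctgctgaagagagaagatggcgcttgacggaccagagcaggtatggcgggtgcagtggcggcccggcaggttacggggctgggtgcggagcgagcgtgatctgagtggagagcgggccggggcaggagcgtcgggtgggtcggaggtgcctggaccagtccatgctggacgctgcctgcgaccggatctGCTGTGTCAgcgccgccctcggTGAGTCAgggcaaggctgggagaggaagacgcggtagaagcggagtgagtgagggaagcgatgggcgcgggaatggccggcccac
PSMC5 itself had log2 fold changes of 0.06 (interval -0.23 to 0.35) for FOSL1sh3 and 0.02 (interval -0.28 to 0.31) for FOSL1sh10, and its 412, 331 and 427 CPM in FOSL1sh3 libraries and 381, 358 and 395 CPM in FOSL1sh10 libraries overlapped the 345, 363 and 413 CPM in GFPsh libraries.

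The proteasome works with ubiquitin genes, shuttle factors and transcription factors, and 41 genes, such partners and the inducible subunits PSMB8 and PSMB9, were listed and all passed the filter. With FOSL1sh3, 1 of them rose and 2 fell against GFPsh, beside 10.9% of all genes called. With FOSL1sh10, 1 rose, PSMB9, and none fell, beside 5.28%. FOSL1sh3 set against FOSL1sh10 gave 5 lower and none higher, beside 12.7%. UCHL5, a deubiquitinase bound to the regulatory particle, had 45.7, 53.7 and 30.8 CPM in FOSL1sh3 libraries and 57.5, 83.7 and 63.2 CPM in FOSL1sh10 libraries, against 81.1, 73.2 and 73.1 CPM in GFPsh libraries. FOSL1sh3 lay below both other groups, and UCHL5 fell by 0.81 on the log2 scale against GFPsh (SE 0.184, adjusted p = 0.01). RAD23B, which carries ubiquitinated proteins to the proteasome, had 54.8, 64.3 and 53.2 CPM in FOSL1sh3 libraries and 92.4, 105 and 93.7 CPM in FOSL1sh10 libraries, against 95.04, 74.95 and 77.4 CPM in GFPsh libraries. FOSL1sh3 was again lowest, at -0.52 against GFPsh (adjusted p = 0.0256) and -0.76 against FOSL1sh10 (adjusted p = 0.00235).

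UBA1, the main enzyme that activates ubiquitin, had 85.0, 74.6 and 100.1 CPM in FOSL1sh3 libraries and 57.3, 71.5 and 68.0 CPM in FOSL1sh10 libraries, against 41.8, 63.3 and 61.5 CPM in GFPsh libraries. FOSL1sh3 lay above both other groups, and UBA1 rose by 0.64 against GFPsh (SE 0.168, adjusted p = 0.0212). These 3 calls against GFPsh were lost with the GC and length trend removed, with adjusted p of 0.076 for UCHL5, 0.132 for RAD23B and 0.0811 for UBA1. RAD23B was also lost without GFPsh replicate 1 (adjusted p = 0.158), FOSL1sh3 replicate 1 (0.0707) or FOSL1sh3 replicate 3 (0.0759) and with the compared groups alone (0.056), and UBA1 without GFPsh replicate 1 (0.118) or FOSL1sh3 replicate 3 (0.0829).

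The factors known to drive subunit genes were not called in any comparison in the main fit of edgeR's quasi-likelihood test. NFE2L1 had 70.6, 88.1 and 130.4 CPM in FOSL1sh3 libraries and 69.8, 70.1 and 65.2 CPM in FOSL1sh10 libraries, against 67.6, 74.6 and 99.6 CPM in GFPsh libraries, with changes of 0.26 (adjusted p = 0.421) and -0.24 (adjusted p = 0.551). FOSL1sh3 was above FOSL1sh10 in every library, without a call (0.49, adjusted p = 0.0994), and was called without the filter on low counts (adjusted p = 0.0409) and without FOSL1sh3 replicate 1 (0.0275). NFE2L2, the oxidative stress factor, was at -0.45 (adjusted p = 0.111) for FOSL1sh3 and 0.09 for FOSL1sh10, and lower in FOSL1sh3 than in FOSL1sh10 by -0.54, without a call (adjusted p = 0.0542). NFE2L2 was called there by DESeq2 (adjusted p = 0.0499), with library totals (0.0115), without the filter on low counts (0.0259) and without FOSL1sh3 replicate 2 (0.0166), 4 of 16 alternatives. POMP, the maturation factor of the core particle, was at -0.18 and -0.22, with intervals from -0.73 to 0.33 over both comparisons.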

How the data were processed

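RNA libraries of 9 EGI-1 samples were analysed from the deposited tables, which give raw counts of reads per gene, not normalized by the authors. Per the labels' protocols, libraries followed a low-input MARS-seq method, and RNA below a quality minimum was left out. The submitters' processing notes name FastQC 0.11.5, STAR 2.5.3a and the build hg38. Per the file headers, featureCounts 1.6.0 counted reads over exons of GENCODE release 28 with no strand option, so antisense and overlapping genes cannot be told apart. Collapsing by molecular identifiers is a step not given in the sources used here, and limits from counts cover counting error only. The titles gave each library's group and replicate number.

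The test was edgeR's (version 4.0.16, in R 4.3.3), in 1 main fit over all 9 libraries. The default filter (minimum count 10, minimum total 15) left 12814 genes, libraries were scaled by TMM, and the quasi-likelihood F test was used with Benjamini-Hochberg adjustment over all these genes, with calls at 0.05. CPM values are TMM-scaled unless stated, SE is the size of the log2 fold change divided by the root of F, and intervals are 95%. Calls were read against the share of all genes called, and no test was made over the members as a list. Alternatives were library totals, DESeq2 size factors, DESeq2 1.42.0, no filter, fits of the compared groups alone, a replicate block, each library left out and, chosen after seeing the data, removal of a trend on GC content and transcript length. The fit was tested on simulated data. Exon overlaps came from the annotation in the files, gene types from GENCODE release 29, and promoter windows from RefSeq (GRCh38.p14).

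The members, the list of 41 related genes and the naming rule were chosen with earlier results of these data known. Named were every member called in any comparison, the 2 members of each part with the smallest p against GFPsh, PSMB5, PSMB6, PSMB7 and PSMB10, members under the filter, and of the 41 genes those called, PSMB8, PSMB9, NFE2L1, NFE2L2 and POMP. Other members are named by their place in the complex, after their values were seen.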

Additional observations from a re-analysis of the deposited data

Results flagged for a closer look

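The effects of the hairpins differed from each other in the direct comparison of FOSL1sh3 with FOSL1sh10 for 8 genes (edgeR's quasi-likelihood test, adjusted p under 0.05 over all genes), 3 of 46 members and 5 of 41 related genes, beside 12.7% of all genes tested. Among the members the log2 fold changes were -0.704 for PSMD12, -0.517 for PSMD11 and -0.536 for PSMG1. Among the 41 related genes they were -0.969 for PSMB9, -0.755 for RAD23B, -0.653 for UCHL5, -0.483 for UBQLN1, a shuttle factor, and -0.564 for ZFAND5, a protein that binds the proteasome. Of 16 alternatives, PSMD12, PSMB9 and RAD23B were called in 16, PSMD11 and PSMG1 in 13, UCHL5 in 12, UBQLN1 in 9 and ZFAND5 in 8. In all 8 genes the 3 FOSL1sh3 libraries lay below the 3 FOSL1sh10 libraries, and these groups did not overlap for 30.7% of all genes tested. The 8 genes were picked by a test on the same libraries, so this order is not a result apart from the calls.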

How the results depend on the processing

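With library totals in place of TMM, the median of all genes moved to -0.0614 for FOSL1sh3 and 0.105 for FOSL1sh10 against GFPsh and to -0.171 between the hairpins. The medians of the members moved with it, to -0.0724, 0.075 and -0.188. Members called were then 2 for FOSL1sh10, beside 650 higher and 189 lower among all 12814 genes tested. They were 1 for the mean of both hairpins, beside 433 higher and 330 lower. For FOSL1sh3 against FOSL1sh10 they were 9, beside 385 higher and 1807 lower. The main counts were 3 for FOSL1sh3, 0 for FOSL1sh10, 2 for the mean of both and 3 between the hairpins. With DESeq2, members called were 2 for FOSL1sh10, beside 458 genes higher and 363 lower in all. For the mean they were 4, beside 502 higher and 455 lower. With the compared groups alone they were 2 for FOSL1sh10, beside 614 higher and 510 lower. With the GC and length trend removed they were 1 for FOSL1sh10 and 1 for the mean (PSMD10 in both). All genes called were then 423 higher and 403 lower for FOSL1sh10 and 316 and 339 for the mean. Between the hairpins 5 members were called, beside 783 higher and 786 lower, and PSMC6 (higher) and PSMG3 (lower) were added. For FOSL1sh3 PSMB1 (higher) was called and PSMD6 was not, beside 430 higher and 458 lower. The causes were not tested. With each library left out, the counts ranged from 1 to 4 for FOSL1sh3, 0 to 2 for FOSL1sh10, 0 to 2 for the mean and 1 to 4 between the hairpins. The count for FOSL1sh3 was 1 without GFPsh replicate 1, that for FOSL1sh10 was 2 without FOSL1sh3 replicate 3, that for the mean was 0 without GFPsh replicate 1 or 3 or FOSL1sh10 replicate 1 or 3, and that between the hairpins was 1 without FOSL1sh3 replicate 3 or FOSL1sh10 replicate 2. The medians of the members then ranged from -0.108 to 0.0235, -0.0472 to -0.00976, -0.0958 to -0.0227 and -0.0509 to 0.0373. The call of FOSL1 held in every setting, and no called change turned its direction.

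Deviations of same-numbered libraries correlated at -0.116 to 0.183, and those of differently numbered libraries at -0.165 to 0.156. Same-numbered libraries of FOSL1sh3 and GFPsh stood at 0.183, 0.0291 and 0.129, and those of FOSL1sh10 and GFPsh at -0.116, -0.0953 and 0.0379. Whether the replicate numbers pair libraries cannot be settled from these values. With a replicate block the members called were 3, 0, 1 and 3 in the same order of comparisons. All genes called were then 678, 401, 408 and 742 higher and 778, 294, 404 and 931 lower. PSMG4 was not called in the mean of both hairpins (adjusted p = 0.0508). PSMA2, PSMA4, PSMA6, PSMB10, PSMC1 and PSMD9 had under 10 CPM in GFPsh, and their SE for FOSL1sh3 against GFPsh was 0.3135 to 0.548 on the log2 scale, against a median of 0.148 over the members.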
